A study of Homo sapiens with 2 samples.

Results

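The aryl hydrocarbon receptor (AHR) and the genes around it were compared between Ca9-22 cells that carried a PTHLH vector (Ca9-22-PTHLH) and Ca9-22 cells that carried an empty vector (Ca9-22-EV). The group holds 9 genes, namely the receptor AHR, its partners ARNT and ARNT2, its repressor AHRR, and the target genes CYP1A1, CYP1A2, CYP1B1, TIPARP and ALDH3A1. They were found by gene symbol in the platform annotation, and all 9 were measured, by 19 probe sets, of 19775 genes measured by 41097 probe sets with a single gene symbol. Each probe set combines several short oligonucleotides that read a transcript. The group was chosen by symbol, but with the log2 difference of CYP1A1 between the 2 arrays in view, which was the lowest of any gene, so the values are given as a description and nothing was tested.

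Ca9-22 is a human cell line that was derived from a squamous carcinoma of the gingiva. Both cultures were infected with a vector, empty or carrying PTHLH (parathyroid hormone-like hormone), and were selected with blasticidin, an antibiotic that cells survive only when they carry the resistance gene of the vector. Each culture gave RNA for 1 Affymetrix U133 array. The methods speak of a stable cell mixture for the growth assays and, for the arrays, only of enrichment by selection. The PTHLH vector cannot be told apart from any other difference between the 2 cultures.

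AHR is a transcription factor that is held in the cytosol by chaperones until it binds a ligand, such as a polycyclic aromatic hydrocarbon, a dioxin or a product of tryptophan. It then enters the nucleus, pairs with ARNT and binds DNA at xenobiotic response elements, whose core letters are GCGTG. Its best known target is CYP1A1, a cytochrome P450 that oxidizes aromatic hydrocarbons, and AHRR and TIPARP are targets that in turn repress the receptor. In squamous epithelium, which meets such compounds at the body surface, AHR also takes part in barrier differentiation.

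CYP1A1, TIPARP and AHRR, the members at least 1.5-fold lower in Ca9-22-PTHLH cells, are known targets of the receptor, so the stretch around their start of transcription is shown, from 250 bases before the start to 50 bases after it. The sequences are from RefSeq (GRCh38.p14), which matched 6 of the 9 members with 9 windows, and each is written 5′ to 3′ on the strand of its gene. ARNT2, CYP1B1 and ALDH3A1 had no window. Capitals mark the core GCGTG, or its complement CACGC where the core lies on the other strand. CYP1A1 is on the minus strand at chr15:74725479-74725778, AHRR has a pair of windows on the plus strand at chr5:321464-321763 and chr5:322360-322659, and the first TIPARP window is on the plus strand at chr3:156674340-156674639.
CYP1A1: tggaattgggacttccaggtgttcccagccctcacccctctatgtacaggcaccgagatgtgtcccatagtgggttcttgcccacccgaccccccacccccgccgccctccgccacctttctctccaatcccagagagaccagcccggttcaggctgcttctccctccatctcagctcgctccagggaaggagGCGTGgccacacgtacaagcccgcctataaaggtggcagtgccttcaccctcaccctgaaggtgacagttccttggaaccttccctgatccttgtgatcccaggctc
TIPARP, first window: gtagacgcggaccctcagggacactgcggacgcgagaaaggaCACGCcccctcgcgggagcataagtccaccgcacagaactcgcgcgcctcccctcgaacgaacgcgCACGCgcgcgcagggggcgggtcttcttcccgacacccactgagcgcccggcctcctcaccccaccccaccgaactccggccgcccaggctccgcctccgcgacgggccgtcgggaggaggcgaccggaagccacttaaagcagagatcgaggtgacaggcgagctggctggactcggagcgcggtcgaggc
AHRR, first window: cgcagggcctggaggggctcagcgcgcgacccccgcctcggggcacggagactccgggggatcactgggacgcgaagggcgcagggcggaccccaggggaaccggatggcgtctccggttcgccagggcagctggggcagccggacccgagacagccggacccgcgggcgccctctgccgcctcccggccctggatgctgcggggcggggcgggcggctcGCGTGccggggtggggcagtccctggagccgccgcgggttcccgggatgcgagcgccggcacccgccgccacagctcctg
AHRR, second window: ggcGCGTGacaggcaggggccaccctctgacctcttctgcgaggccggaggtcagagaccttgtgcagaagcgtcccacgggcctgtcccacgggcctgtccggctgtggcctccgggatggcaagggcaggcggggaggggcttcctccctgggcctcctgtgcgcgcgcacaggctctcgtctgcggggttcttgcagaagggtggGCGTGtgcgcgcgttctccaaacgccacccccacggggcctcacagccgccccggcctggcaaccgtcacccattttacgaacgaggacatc

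The CYP1A1 window held the core once, beginning 57 bases before the start. The first TIPARP window held it at 2 places on the other strand, 208 and 142 bases before the start, while the other 2 TIPARP windows held none. AHRR had it 30 bases before the start of its first window, and 247 and 42 bases before that of its second. The AHR window held it once, 37 bases after the start, and the windows of ARNT and CYP1A2 held none. The core is short and common, as 36.5% of all 35116 RefSeq windows of this length held it on either strand. The longer form TNGCGTG, which contains the core, was in 5.51% of all windows and, among the windows of the members, only in the first AHRR window. A match is a run of letters and not a measured binding site, and sequence outside these windows was not searched.

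CYP1A1 was 11.4-fold lower in Ca9-22-PTHLH cells than in Ca9-22-EV cells, the feedback repressors TIPARP and AHRR were 1.83-fold and 1.64-fold lower, ALDH3A1 was 1.65-fold higher, and AHR itself was level. By the brightest probe set of each gene, 3 of the 9 members were at least 1.5-fold lower, the fold threshold of the study, against 3.52% of all genes, and 1 of the 9 was at least 1.5-fold higher, against 1.97% of all genes. Counted by probe set, 3 of 19 were at least 1.5-fold lower, against 2.65% of all probe sets, and 1 of 19 was at least 1.5-fold higher, against 1.81%. Nothing is read from these shares, since the members were put together with the result for CYP1A1 in view. Of the members, 7 were above both array medians, 1 was above on 1 array and 1 was below both. The median log2 difference was -0.41 over the members and 0 over all genes.

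CYP1A1 had an intensity of 82.1 in Ca9-22-PTHLH cells, against 937 in Ca9-22-EV cells, in the arbitrary units of the deposited values. The log2 difference (PTHLH minus EV throughout) was -3.51, the lower value being that of Ca9-22-PTHLH cells. No other of the 54675 probe sets on the arrays had a difference this low. The next lowest gene of all had -2.56, on a probe set that was above the array median on 1 array only. Among genes above the median of both arrays (19.4 on the PTHLH array and 19.5 on the EV array), those with the next lowest differences were ENPP2, the enzyme that makes lysophosphatidic acid (-2.06), the glutathione transferase GSTA4 and TMEM225B (both -1.85). The second probe set of ENPP2 gave -1.89 and that of GSTA4 only -0.79. With 2 arrays, this single difference is the only pattern on which genes can be likened to CYP1A1. CYP1A1 is read by a single probe set, so no second probe set of the gene can be set beside it.

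TIPARP and AHRR were also at least 1.5-fold lower in Ca9-22-PTHLH cells. TIPARP, an ADP-ribosyltransferase that modifies AHR and lowers its activity, had an intensity of 391 in Ca9-22-PTHLH cells and 714 in Ca9-22-EV cells, a log2 difference of -0.87 (1.83-fold lower). A difference this low or lower was found in 238 of 19775 genes (1.20%). AHRR, which resembles AHR, takes its place beside ARNT and represses the same elements, had an intensity of 50.4 in Ca9-22-PTHLH cells and 82.8 in Ca9-22-EV cells, a log2 difference of -0.72 (1.64-fold lower). Here 397 genes (2.01%) were as low or lower. Of the genes within 0.5 log2 units of its mean level, 6.92% were at least 1.5-fold lower, and at the level of TIPARP the share was 3.18%. Both genes are read by 1 probe set each. CYP1A1, TIPARP and AHRR thus shared a direction, but CYP1A1 differed far more than the others.

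ALDH3A1, an aldehyde dehydrogenase that is abundant in cornea and belongs to the classic set of AHR-induced enzymes, went the other way. Its intensity was 21.1 in Ca9-22-PTHLH cells and 12.8 in Ca9-22-EV cells, a log2 difference of 0.72 (1.65-fold higher). The probe set was dim, lying above the array median on the PTHLH array only. Of 2799 genes within 0.5 log2 units of its mean level, 38 (1.36%) were at least 1.5-fold higher.

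The receptor itself was level. AHR had an intensity of 164 in Ca9-22-PTHLH cells and 162 in Ca9-22-EV cells, a log2 difference of 0.02. ARNT, the obligate partner of ligand-bound AHR and of the hypoxia-inducible factors, gave no single direction over its 7 probe sets. The brightest had an intensity of 97.1 in Ca9-22-PTHLH cells and 91.8 in Ca9-22-EV cells (log2 difference 0.08), and the second brightest had 67.4 in Ca9-22-PTHLH cells and 95.4 in Ca9-22-EV cells (-0.50). Of the 4 ARNT probe sets above both array medians, 2 were higher and 2 lower, with log2 differences between -0.50 and 0.21, and none reached 1.5-fold. The 3 dim ones lay between 0.10 and 0.29.

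ARNT2, the relative of ARNT best known from the nervous system, had an intensity of 23.2 in Ca9-22-PTHLH cells and 33.7 in Ca9-22-EV cells. The log2 difference of -0.54 (1.45-fold lower) lay just inside 1.5-fold, whose log2 value is 0.58, while that of AHRR (-0.72) lay just past it.

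The other members of the CYP1 family did not share the size of the CYP1A1 difference. CYP1A2, which lies on the same chromosome and acts mainly in liver, had an intensity of 30.5 in Ca9-22-PTHLH cells and 40.7 in Ca9-22-EV cells on its brighter probe set (log2 difference -0.41), and 29.0 in Ca9-22-PTHLH cells and 31.9 in Ca9-22-EV cells on the other (-0.14). Both carry a suffix, x or s, for probes that can bind several transcripts. CYP1B1, which oxidizes steroids and hydrocarbons outside the liver, was below both array medians on all 4 of its probe sets. Its brightest had 10.6 in Ca9-22-PTHLH cells and 9.17 in Ca9-22-EV cells, and the log2 differences ran from -0.23 to 0.21. At this brightness the arrays cannot show how the CYP1B1 transcript differed.

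**Figure D1:**
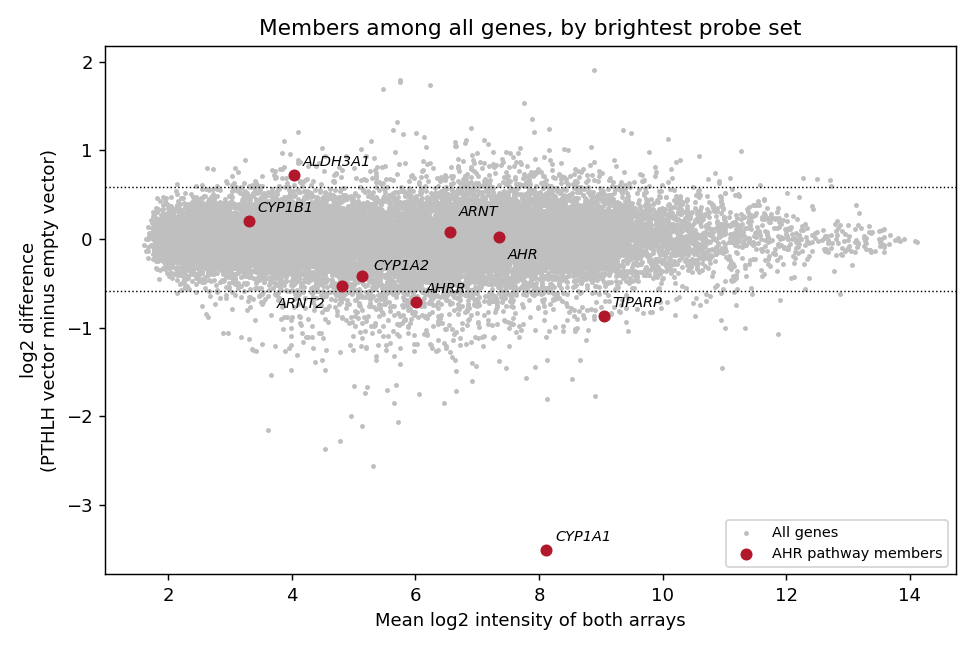
Log2 difference, PTHLH minus EV, against the mean log2 intensity of both arrays for each of 19775 genes by its brightest probe set (grey), with the 9 members in red. Dotted lines mark 1.5-fold higher and lower. CYP1A1 lies alone at -3.51, TIPARP, AHRR and ALDH3A1 lie past the dotted lines, and the other 5 members lie between them.

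With 1 array per condition the spread between cultures is unknown, and the precision is limited by how few arrays there are. The only internal measure of error is how far the probe sets of a gene differ from each other. From the 2 brightest probe sets of 5594 genes, where both were above both medians, the SD of a log2 difference was 0.20, and for 1978 genes with both below the medians it was 0.21. This covers differences between probes and not between cultures. Among member probe sets above both medians, only those of AHR, the brightest of ARNT and the second of CYP1A2 had log2 differences smaller than this spread. Among those below both medians, CYP1B1 values of 0.207, 0.110 and -0.123 and ARNT values of 0.148 and 0.100 were smaller than 0.212. The remaining dim values, -0.225 for CYP1B1 and 0.295 for ARNT, were larger.

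Of all 19775 genes, 9596 had a log2 difference above 0, and 5.49% reached 1.5-fold in either direction. The 3 chaperone genes measured for the complex that holds AHR ready were all somewhat higher in Ca9-22-PTHLH cells. None reached 1.5-fold by its brightest probe set. HSP90AA1, the inducible cytosolic HSP90, had an intensity of 5599 in Ca9-22-PTHLH cells and 4023 in Ca9-22-EV cells (log2 difference 0.48), and its 4 probe sets lay between 0.48 and 0.89. HSP90AB1, the constitutive form, had 2273 in Ca9-22-PTHLH cells and 1780 in Ca9-22-EV cells (0.35). PTGES3, the p23 cochaperone, had 2946 in Ca9-22-PTHLH cells and 2389 in Ca9-22-EV cells (0.30).

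Of 7 measured coregulators, 1 was at least 1.5-fold higher (1.97% of all genes) and none lower (3.52% of all genes), with a median log2 difference of 0.18. By the median over probe sets 0 were higher, and 2 were lower when each gene was read by its most changed probe set. The higher one was the acetyltransferase CREBBP, with an intensity of 641 in Ca9-22-PTHLH cells and 392 in Ca9-22-EV cells (0.71), though its other probe sets lay between 0.08 and 0.47. Its relative EP300 had 169 in Ca9-22-PTHLH cells and 116 in Ca9-22-EV cells (0.54), and TRIP11, a coactivator of ARNT, had a log2 difference of 0.29, though its 4 dimmer probe sets ran from -0.59 to 0.17. NRIP1, a corepressor of nuclear receptors, had -0.26 and -0.30 on its 2 probe sets. By the brightest probe set, 5.49% of all genes reached 1.5-fold in either direction. None of 12 other bHLH-PAS factors, the protein family of AHR and ARNT, did so. The largest differences among them by that probe set were those of the clock gene CLOCK (0.30) and BMAL2 (0.27), NPAS1 had -0.18, and HIF1A, the hypoxia-inducible partner of ARNT, had -0.12. The other probe sets of BMAL2 gave -0.09 and 0.62, the last past 1.5-fold. The median over the 12 was 0.04.

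Other genes known to respond to AHR were split. Of 15 measured, 2 were at least 1.5-fold lower (3.52% of all genes) and 2 at least 1.5-fold higher (1.97% of all genes), with a median log2 difference of 0.05 against 0 over all genes. With 16 added to each value before log2, 1 was lower and 0 were higher, and without dim probe sets 1 was higher. IL1B, the interleukin that AHR ligands induce in keratinocytes, had 151 in Ca9-22-PTHLH cells and 525 in Ca9-22-EV cells on its brightest probe set (log2 difference -1.80), and its second probe set gave -1.93. PTGS2, the inducible prostaglandin synthase, had 10.9 in Ca9-22-PTHLH cells and 23.2 in Ca9-22-EV cells (-1.09). That probe set was above the array median on the EV array only, and the other PTGS2 probe set, below both medians, gave -0.24. XDH, xanthine dehydrogenase, had 78.1 in Ca9-22-PTHLH cells and 47.9 in Ca9-22-EV cells (0.71), and its other probe set gave 0.07. UGT1A6, which joins glucuronic acid to phenols, had 12.9 in Ca9-22-PTHLH cells and 6.95 in Ca9-22-EV cells (0.89) on its own dim probe set, whereas 5 probe sets that it shares with other UGT1A genes lay between -0.31 and -0.08. NQO1, a quinone reductase under both AHR and NRF2, had 977 in Ca9-22-PTHLH cells and 942 in Ca9-22-EV cells (0.05), and NFE2L2, which encodes NRF2, had 883 in Ca9-22-PTHLH cells and 1129 in Ca9-22-EV cells (-0.35). The filament protein FLG had a log2 difference of -0.42, and OVOL1, a transcription factor of keratinocyte differentiation, had 0.32 and, on its other probe set, -0.19. SERPINB2 and GSTA2 have no probe set named here and are not analysed here.

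None of 7 tryptophan-metabolizing enzymes linked to AHR ligands reached 1.5-fold in either direction (5.49% of all genes), and the median log2 difference was 0.02. TDO2, which opens the tryptophan ring in liver, had 22.7 in Ca9-22-PTHLH cells and 16.2 in Ca9-22-EV cells (0.49). IDO1, its counterpart in inflamed tissue, had 27.2 in Ca9-22-PTHLH cells and 34.1 in Ca9-22-EV cells (-0.33). AFMID, the next enzyme of the pathway, had a log2 difference of 0.25. The 4 genes that supply P450 enzymes with electrons and haem were all lower by less than 1.5-fold. Of all 19775 genes, 9292 had a log2 difference below 0. ALAS1, the first enzyme of haem synthesis, had 203 in Ca9-22-PTHLH cells and 295 in Ca9-22-EV cells (-0.53), the reductase CYB5R3 had -0.23, its substrate CYB5A had -0.12, and POR, the P450 reductase, had 483 in Ca9-22-PTHLH cells and 500.4 in Ca9-22-EV cells (-0.05).

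Of 44 other cytochrome P450 genes, none was at least 1.5-fold higher in Ca9-22-PTHLH cells (1.97% of all genes), 6 were at least 1.5-fold lower (3.52% of all genes), and the median log2 difference was 0.01. The lower count was 3 with 16 added to each value before log2. Of the lower ones, 4 belong to the CYP4F subfamily of fatty acid hydroxylases, which lies on chromosome 19. CYP4F3 had an intensity of 234 in Ca9-22-PTHLH cells and 480.0 in Ca9-22-EV cells (log2 difference -1.03), CYP4F12 had 97.7 in Ca9-22-PTHLH cells and 165 in Ca9-22-EV cells (-0.76), CYP4F11 had 24.7 in Ca9-22-PTHLH cells and 45.9 in Ca9-22-EV cells (-0.89), and CYP4F2 had 24.4 in Ca9-22-PTHLH cells and 42.9 in Ca9-22-EV cells (-0.82). These genes are close copies of each other and may share signal, the probe set of CYP4F2 carrying the suffix x and that of CYP4F12 the suffix s. The other 2 measured members, CYP4F8 and CYP4F22, were below both array medians, with log2 differences of 0.10 and 0.04. The subfamily was singled out after its values had been seen. The remaining lower P450 genes, CYP3A5 (-1.24) and CYP2E1 (-0.62), rested on probe sets that were below both medians for CYP3A5 and above the median on the EV array only for CYP2E1, and their other probe sets lay between -0.40 and 0.18. The AHR-responsive CYP2S1 had 82.8 in Ca9-22-PTHLH cells and 63.2 in Ca9-22-EV cells (0.39).

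Among 17 other aldehyde dehydrogenase genes, relatives of ALDH3A1, none was at least 1.5-fold higher (1.97% of all genes), 2 were at least 1.5-fold lower (3.52% of all genes), and the median log2 difference was 0.17. Both lower ones were near the threshold, and by the median over probe sets 0 were lower. ALDH1A3, which makes retinoic acid, had 6033 in Ca9-22-PTHLH cells and 9285 in Ca9-22-EV cells (-0.62), and ALDH3B2 had 45.4 in Ca9-22-PTHLH cells and 68.9 in Ca9-22-EV cells (-0.60). ALDH3A2, a member of the same subfamily as ALDH3A1, had 402 in Ca9-22-PTHLH cells and 578 in Ca9-22-EV cells (-0.53), with its other probe sets at -0.13 and 0. The higher value of ALDH3A1 was not accompanied by a higher value of at least 1.5-fold in any other measured gene of the family.

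**Figure D2:**
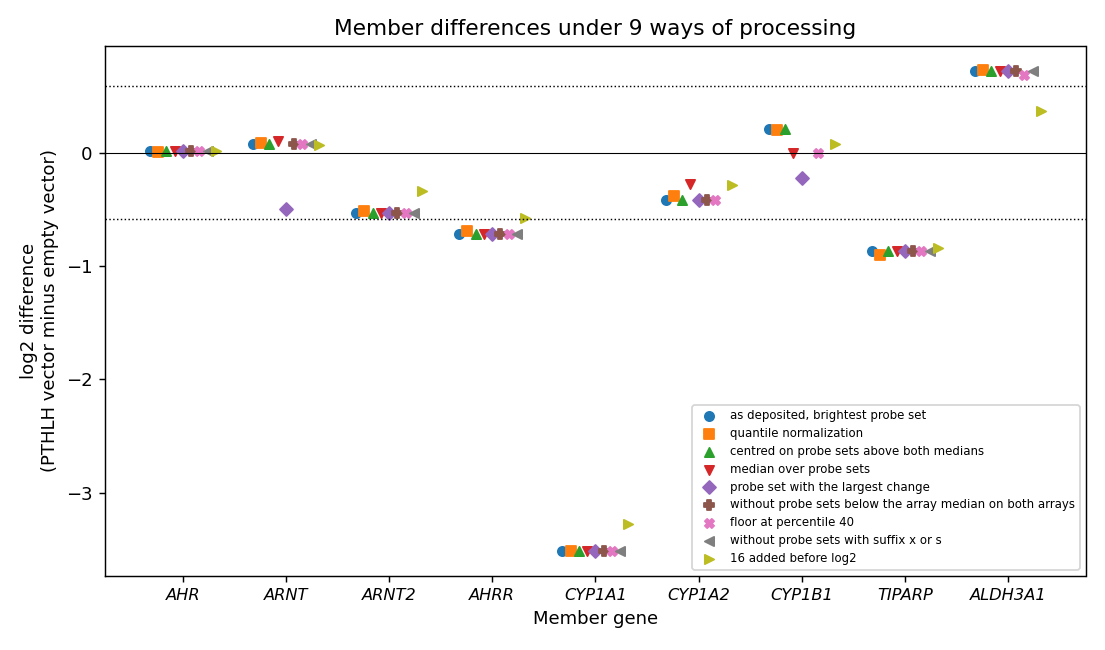
Log2 difference, PTHLH minus EV, of each member gene under 9 ways of processing the deposited values (1 marker each, CYP1A2 having 8 and CYP1B1 7), with dotted lines at 1.5-fold. CYP1A1 stays between -3.52 and -3.28 and TIPARP between -0.90 and -0.84, while ARNT (-0.50 to 0.10) and CYP1B1 (-0.23 to 0.21) lie on both sides of 0.

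The tissue type of the cells was checked against markers, which cannot tell Ca9-22 from other squamous lines. KRT6A and TP63 have no probe set named here. The 4 measured markers of squamous epithelium (KRT5, KRT14, CDH1 and DSG3) had intensities of 447 to 10228 in Ca9-22-PTHLH cells and 390.1 to 7823 in Ca9-22-EV cells. The 5 intestinal markers had 7.75 to 27.7 in Ca9-22-PTHLH cells and 9.40 to 30.1 in Ca9-22-EV cells. Of these, CDX2 and VIL1 were above both array medians on their brightest probe sets, while all other probe sets of both genes were below both medians. The 6 markers of mesenchymal and blood cells had 6.32 to 39.9 in Ca9-22-PTHLH cells and 5.72 to 40.4 in Ca9-22-EV cells. PECAM1 was above both medians, again on its brightest probe set only. The intestinal markers were looked at because the free-text description of both samples mentions a different line, CX-1, and a different gene, RAB3C. The titles and characteristics, which name Ca9-22 and PTHLH, were followed. PTHLH is not analysed here, so the vector label was not checked on the arrays.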

How the data were processed

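Total RNA of 1 Ca9-22-PTHLH and 1 Ca9-22-EV culture was labelled with biotin and measured on Affymetrix U133 arrays. The authors deposited 1 linear intensity for each probe set. How background correction, normalization and probe summary were done is not stated in the sources used here. Values were turned to log2, and the EV array was subtracted from the PTHLH array without further normalization. Probe sets with 1 gene symbol (41097 of 54675) were named by the platform annotation, with symbols updated from GRCh38.p14 gene identifiers, 1801 had several symbols and 11777 are unnamed here. A gene was represented by its brightest probe set. No test was run, because there was 1 array per condition.

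The members and lists were chosen with earlier results of these data known. Named were all members, the list genes past 1.5-fold, and the 3 genes next lowest after CYP1A1. Of each list, up to 3 genes with the largest differences above an array median were also named, counting those past 1.5-fold. NQO1, NFE2L2, FLG, OVOL1, NRIP1, CYP2S1, HIF1A, POR and the dim CYP4F genes were named after their values were seen. Alternatives were quantile normalization, centring, the median or the largest change over probe sets, leaving out dim probe sets or those with suffix x or s, a floor at percentile 40, an offset of 16 and a 2-fold threshold. The method was tested on simulated data whose planted differences lay far past 1.5-fold and which held no spread between cultures. That test therefore cannot show how reliable calls near 1.5-fold are. Python 3.11.15, pandas 2.3.3, numpy 2.4.6 and matplotlib 3.10.9 were used.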

Additional observations from a re-analysis of the deposited data

How the results depend on the processing

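Under the 8 alternatives that give a log2 difference, CYP1A1 stayed between -3.52 and -3.28, the last with 16 added before log2. TIPARP stayed past 1.5-fold in all of them (-0.90 to -0.84). Only quantile normalization and the added 16 could move CYP1A1, TIPARP and AHRR. Each is read by 1 bright probe set without suffix x or s, and the centring shift was 0. AHRR reached -0.57 with 16 added, short of 1.5-fold, which left 2 lower members, and ALDH3A1 then had 0.36, so the count of higher members was 0 with 16 added. At a 2-fold threshold 0 members were higher and 1, CYP1A1, was lower. The brightest probe set of ARNT was on one side of 0 and the one with the largest change on the other (-0.50), and for CYP1B1 the same holds (-0.23). The cause was not tested. Without probe sets of suffix x or s, CYP1A2 and CYP1B1 had no value, and neither had CYP1B1 without dim probe sets. With the largest change per gene the median of the AHR coregulators was -0.30, and without dim probe sets that of the other cytochrome P450 genes was -0.25. Among the other lists, P450 genes at least 1.5-fold lower numbered 3 with 16 added and 2 at 2-fold. AHR-responsive genes lower numbered 1 with 16 added, and higher ones 1 by the median over probe sets, without dim or suffixed probe sets or with the floor, and 0 with 16 added or at 2-fold. Lower aldehyde dehydrogenases numbered 1 with quantile normalization, without suffixed probe sets or with 16 added, and 0 by the median or at 2-fold. Coregulators had 2 lower ones by the largest change, 1 without suffixed probe sets, and 0 higher ones by the median or at 2-fold. HSP90AA1 passed 1.5-fold by the median, by the largest change and without suffixed probe sets. Over all genes the median over probe sets gave 248 higher and 444 lower, the largest change 689 higher and 984 lower, the added 16 gave 216 and 386, and the 2-fold threshold 36 and 145. Dim probe sets limit what can be said of CYP1B1, ALDH3A1 and the dim ARNT probe sets. No paired analysis was possible because each condition had 1 array and no test was run.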

Other observations

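Part of the deposited values lay on a common grid. On the PTHLH array 4.02% of the probe sets, and on the EV array 4.06%, had a value within 0.001 of a multiple of 0.5 less 0.05, where values spread evenly would give 0.4%, and 1933 probe sets (3.54%) did so on both arrays. Among the members these were 3 probe sets, the second brightest of ARNT (67.4 in Ca9-22-PTHLH cells and 95.4 in Ca9-22-EV cells), another of ARNT (32.9 in Ca9-22-PTHLH cells and 28.5 in Ca9-22-EV cells) and the dimmer of CYP1A2 (29.0 in Ca9-22-PTHLH cells and 31.9 in Ca9-22-EV cells). In all, 3367 probe sets (6.16%) held the same value on both arrays, 48 of them on the grid, and none of the 19 member probe sets was among them. What makes these values is not stated in the sources used here.

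The core GCGTG was about as common near the start of genes that were lower as near the start of genes that were higher. Of 540 genes at least 1.5-fold lower in Ca9-22-PTHLH cells with a RefSeq window, 56.5% held it in at least 1 window, against 58.1% of 315 genes at least 1.5-fold higher and 50.6% of all 15384 measured genes with a window. The longer form TNGCGTG was found for 9.81%, 10.5% and 8.27% of the same genes. These shares are descriptions and were not tested.

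The antisense transcripts that lie at members (CYP1B1-AS1, TIPARP-AS1 and ARNT2-AS3) were below both array medians, with log2 differences between -0.13 and 0.25.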
